A study of Teleogryllus oceanicus with 18 samples.

Results

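Gene expression 7 days after infestation was compared with that of uninfested controls in Kauai males of the field cricket *Teleogryllus oceanicus*. The members were chosen by their labels as the 3 Kauai libraries from crickets collected 7 days postinfestation and the 3 Kauai libraries from uninfested crickets, 6 of the 18 libraries of the study. The other 12 libraries held Kauai crickets at day 4 and Mangaia crickets as controls, at day 4 and at day 7, again with 3 libraries a group. Infested crickets were sexually mature adult males from laboratory colonies reared without flies, and each had received 2 planidia, the mobile larvae of the parasitoid fly *Ormia ochracea*, placed on its body by hand. Controls were handled in the same way but were given no larvae. Each Kauai library pooled equal amounts of RNA from 1 flatwing male, whose wings do not produce song, and 1 normal-wing male, so the wing morphs cannot be told apart within a library, whereas each Mangaia library pooled 2 normal-wing males. RNA came from body tissue after removal of the head, digestive tract, pronotum, wings and legs, and larvae were dissected out of the abdomen first. Crickets from which larvae had already emerged by day 7 had been excluded, so the day 7 pools stand for hosts that still carried their parasitoids. Because the values come from pools, all p-values describe the spread between pools of crickets.

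*Ormia ochracea* finds male crickets by their song and deposits larvae that burrow into the host, grow inside the abdomen and kill the host when they emerge. Insects meet such invaders with melanization, in which phenoloxidases, made as inactive proenzymes and activated by serine proteases, build melanin around a foreign body. They also recognise microbial surfaces with peptidoglycan recognition proteins, and they signal through receptors of the Toll family, known in flies both from immunity and from development. A gene was identified only by the number the files give it, MSTRG for models assembled from the reads and TOG for models of the genome annotation, and names were used only for the 53 genes of the study's list of immune genes, where they rest on similarity to proteins of other species. None of those 53 genes marks a tissue, so the body tissue that the study describes was not checked against markers.

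The 6 libraries held 6266925 to 7706535 read pairs in genes, and the groups overlapped in this depth. Levels are given as CPM, read counts scaled to the size of the library with trimmed mean of M-values (TMM) factors, and they compare libraries for the same gene, not genes of different length. Controls differed from each other by 0.72 to 0.82 on the log2 scale (root mean square over all genes tested), day 7 pools 2 and 3 by 0.75, and day 7 pool 1 stood apart from them by 0.92 and 0.96. Unmapped read pairs took 8.14% to 9.99% of control libraries and 10.43% to 10.62% of day 7 libraries, and pairs that mapped to several places fell from 10.9% to 12.0% down to 6.57% to 8.28%. Each of those ranges was separate, with an exact two-sided permutation p of 0.1, the smallest that 3 libraries against 3 allow, and an adjusted p of 0.157 over 11 library measures. RNA of larvae, which could be among the unmapped pairs, was not tested for its part in any result. Only uniquely mapped pairs were counted, without regard to strand, so genes with near-identical copies and overlapping genes on opposite strands are uncertain.

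Infestation was accompanied by change in about every other gene. Of 23748 genes tested, 12174 (51.3%) were differentially expressed (DE) at day 7 by edgeR's quasi-likelihood test at a false discovery rate (FDR) of 0.05, with 5953 higher (25.1%) and 6221 lower (26.2%) than in controls. The fallers changed more than the risers. Their median change was -2.71 on the log2 scale against 1.49 for the risers, and 4414 fallers but 1908 risers had a fitted change over 4-fold. When the change had to exceed 2-fold in the test itself (edgeR's glmTreat, FDR 0.05), 6000 genes (25.3%) passed, 2058 higher (8.67%) and 3942 lower (16.6%). This count was lowest without day 7 pool 1, at 3583, and it was 4212 to 5956 when another of the 6 compared pools was left out. The split between risers and fallers also depended on scaling, since without TMM factors the median of all genes moved from 0.07 to 0.37 and 8280 of 13444 DE genes were higher. Median levels of the risers went from 3.56 CPM in controls to 5.95 CPM at day 4 and 10.2 CPM at day 7, and those of the fallers from 7.69 to 4.79 and 1.28 CPM.

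**Figure D1:**
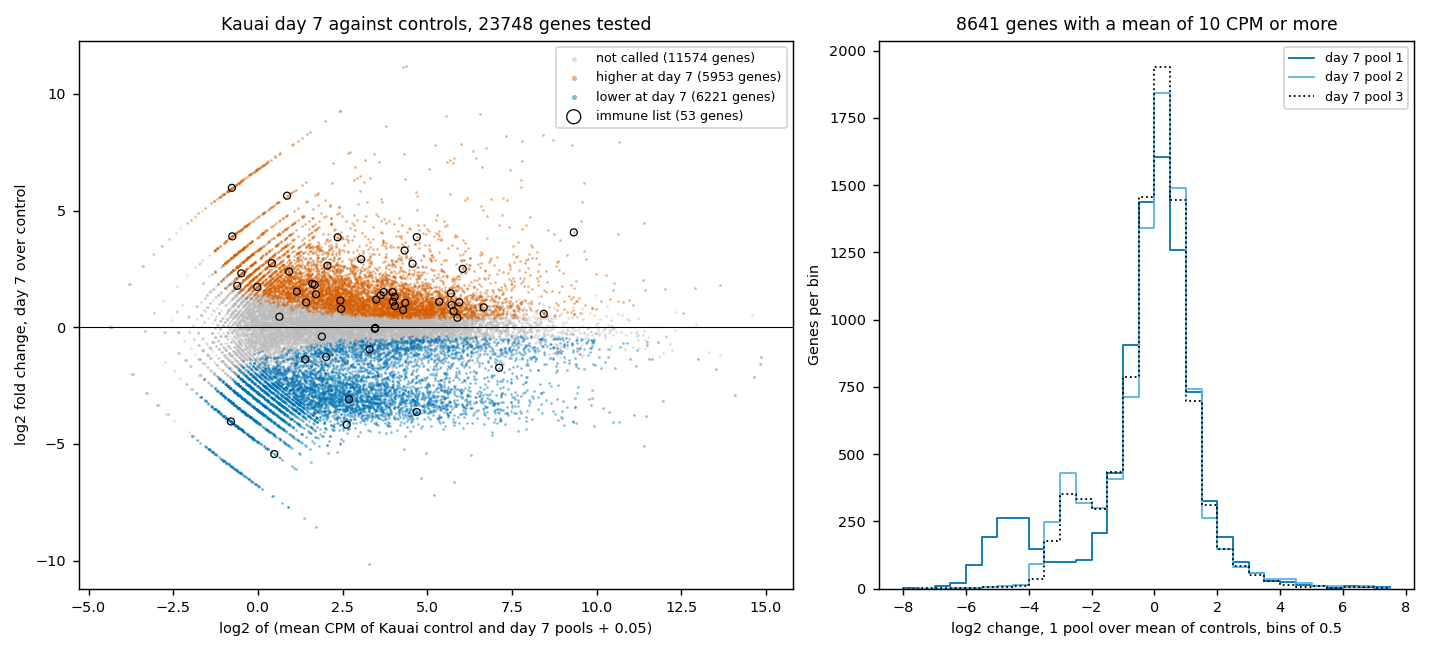
Left, the fitted log2 fold change of each of 23748 tested genes (vertical) against the log2 of its mean CPM in Kauai control and day 7 pools plus 0.05 (horizontal), with 5953 genes called higher in orange, 6221 called lower in blue, uncalled genes in grey and the 53 immune-list genes circled. Right, the number of genes per bin of 0.5 of the log2 change of each day 7 pool over the mean of the controls, for the 8641 genes with a mean of 10 CPM or more; pools 1 and 2 show a second peak among the fallers, further to the left in pool 1 (264 genes between -5 and -4.5) than in pool 2 (429 between -3 and -2.5), and pool 3 a small one or a shoulder (350 between -3 and -2.5 after 295 between -2 and -1.5).

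The distribution of the fitted changes had a second peak on its lower side. Among the 8641 genes that averaged 10 CPM or more over the 6 libraries, the number of genes per 0.5 of log2 fold change declined from 1459 between -0.5 and 0 to 187 between -2 and -1.5, rose again to 365 between -3.5 and -3, and fell to 53 between -4.5 and -4 and to 5 or fewer in each bin below. On the upper side the counts declined steadily, from 1785 between 0 and 0.5 to 29 between 4 and 4.5. A band from -4.5 to -2.5, its bounds chosen after the distribution was seen and therefore described without a test, held 929 genes (10.8% of the 8641). The interquartile range of their fitted change, limited by those bounds, was -3.56 to -2.91. Their median change against the control mean was -4.67 in day 7 pool 1, -2.85 in pool 2 and -2.64 in pool 3, and 896 of the 929 (96.4%) had their lowest day 7 level in pool 1. Pool 1 was also the lowest for 851 of the 1201 other DE fallers at 10 CPM or more (70.9%) and for 47.6% of all 8641 genes. Together they took 12.97%, 14.4% and 15.2% of the read pairs in tested genes in the 3 controls and 0.662%, 2.11% and 2.72% at day 7. In the day 4 pools they took 7.200%, 8.71% and 7.88%, between the levels of the controls and of day 7. In bulk samples fewer cells of a type and less RNA per cell cannot be told apart, and no member of the band could be assigned to an organ.

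Mangaia crickets, which are separate samples, showed the same genes lower. All 929 had a lower fitted level at day 7 in Mangaia, 737 of them (79.3%) DE there, against 16.2% of all 8641 genes that were DE and lower in Mangaia. The median change in Mangaia was -2.29. The band took 3.17%, 0.242% and 1.78% of the read pairs in Mangaia day 7 pools 1, 2 and 3, against 7.40% to 9.92% in Mangaia controls. At day 4 the band's share of read pairs differed in direction between the populations. Mangaia pools had 10.6%, 10.3% and 10.4%, above every Mangaia control, while Kauai pools lay below every Kauai control. Part of the Mangaia rise lay in 1 abundant member, MSTRG.4435, with 10756 to 13284 CPM in Mangaia controls and 20196 to 29065 CPM at day 4. The median changes of the 929 genes from the Kauai control mean overlapped in Mangaia, at -0.93 to -0.42 in controls and -0.69 to -0.58 at day 4. In Kauai they were -0.26 to 0.19 and -1.29 to -0.61. Kauai controls helped to choose the band, and Mangaia levels did not. The difference in direction was not tested. Gene models without a strand made up 49.7% of the band and 26.7% of the 8641 genes. The band held 1 immune-list gene, an interleukin-1 receptor-associated kinase 1-binding protein described with its family.

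The weight of the transcriptome shifted accordingly. Genes lower at day 7 took 46.7% to 49.0% of the read pairs in tested genes of the controls and 15.5% to 21.9% at day 7, while genes that were higher went from 9.49% to 10.04% up to 28.8% to 35.9%. These genes were chosen by this contrast, so the shift is a description. The same genes in Mangaia libraries, which did not choose them, went from 35.2% to 41.4% down to 24.2% to 24.7% and from 12.5% to 14.9% up to 25.3% to 30.4%. At the same time the read pairs became more evenly spread over genes. The 10 most abundant genes of a library held 20.2% to 24.0% of its gene counts in controls and 14.2% to 15.1% at day 7, and the number of genes that together held 50% of the counts rose from 163 to 206 up to 274 to 308 (exact permutation p = 0.1 for both, adjusted p = 0.157). Mangaia did not show this spread, since there the latter number was 247 to 281 in controls and 212 to 233 at day 7. The number of genes at 1 CPM or more overlapped between the groups, at 18484 to 19436 in controls and 18120 to 19080 at day 7 (exact permutation p = 0.5).

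**Figure D2:**
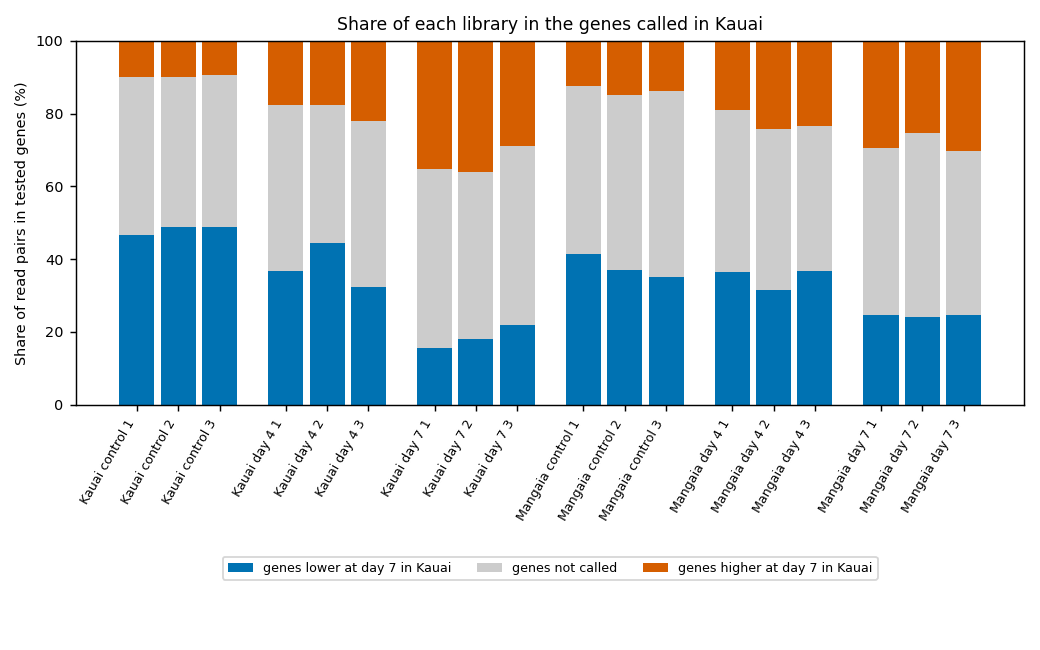
Share of the read pairs in tested genes (%, vertical) that each of the 18 libraries (horizontal) gave to genes called lower (blue), not called (grey) and called higher (orange) at day 7 in Kauai. Kauai controls gave 46.7% to 49.0% to the lower genes and day 7 pools 15.5% to 21.9%, and Mangaia libraries, which did not choose the genes, moved the same way.

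Most of the 5 most abundant transcripts of control crickets fell. Genes here were chosen as the most abundant of a group, and those levels also enter the change, so the changes are a description. MSTRG.5026 had 32149, 43291 and 53681 CPM in the controls and 11751, 13380.4 and 18350.0 CPM at day 7, a log2 change of -1.57 (SE 0.277, edgeR adjusted p = 0.000575). MSTRG.17113 went from 37168, 43220.4 and 44113 to 13852, 16384 and 21793 CPM (log2 -1.26, SE 0.233, edgeR adjusted p = 0.000761). Neither gene overlapped between the groups. At day 4 MSTRG.5026 had 29422, 44378 and 25759 CPM and MSTRG.17113 had 36094, 54456 and 36047.5 CPM. All these day 4 pools lay above every day 7 pool, and several lay outside the range of the controls. MSTRG.4435 fell further, from 38972, 29062 and 23249 to 1463, 4640 and 6015 CPM (log2 -2.91, SE 0.845, edgeR adjusted p = 0.01). For MSTRG.22301 control pool 1 was far above the others, with 68809, 29447 and 25779 CPM in controls and 7037, 6651 and 14787 CPM at day 7 (log2 -2.12, SE 0.63, edgeR adjusted p = 0.0113), and without that pool the adjusted p was 0.0573. MSTRG.9788 was the exception among the 5 most abundant genes of the controls. Its 24869, 14793 and 21159 CPM in controls overlapped with 31518, 37750.3 and 18466 CPM at day 7 (log2 0.53, SE 0.408, edgeR adjusted p = 0.291). MSTRG.9224 and MSTRG.4304 joined the 5 most abundant genes at day 7 after rises of 1.81 (SE 0.375, edgeR adjusted p = 0.00143) and 1.70 (SE 0.374, edgeR adjusted p = 0.00199) on the log2 scale. MSTRG.9224 had 4855 to 6817 CPM in controls, 9706 to 17057 CPM at day 4 and 16527 to 25602 CPM at day 7. None of these 7 genes has a name in the sources used here.

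How often a gene was DE varied with its level. Among the 11579 genes with a mean of 1 to 10 CPM 24.9% were higher and 27.7% lower, among those with 10 to 100 CPM 30.8% were higher and 23.2% lower, and among those with 100 to 1000 CPM 22.5% were higher and 32.6% lower. Of the 120 genes with 1000 CPM or more, 20 were higher and 32 lower. Under 1 CPM, 14.9% were higher and 25.0% lower, and the median standard error there was 0.83 against 0.25 at 10 to 100 CPM. MSTRG models without a strand were lower in 32.8% and higher in 18.8% of 10225 cases, MSTRG models with a strand were lower in 22.1% and higher in 30.1% of 11652, and TOG models were lower in 15.9% and higher in 28.2% of 1871.

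The genes with the largest rises were close to undetected in controls. They were chosen by that rise and reached an average of 10 CPM through their day 7 pools, so their low control levels are a description. Among genes that averaged 10 CPM or more, 32 rose by more than 6 on the log2 scale, and together they had 151.0, 40.8 and 49.6 CPM in the controls, 895, 4449 and 9167 CPM at day 4 and 12627, 17051 and 9071 CPM at day 7. Control pool 1 held the highest control level for 25 of the 32, and at day 4 pool 1 was far below pools 2 and 3. In Mangaia 31 of the 32 were DE in the same direction, with a median log2 change of 8.09, where 12.6% of all genes tested were DE and higher. MSTRG.9585 had 6.14, 0.159 and 1.36 CPM in controls, 11.3, 294 and 246 CPM at day 4 and 852, 1569.7 and 679 CPM at day 7 (log2 8.66, SE 1.54, edgeR adjusted p = 0.000596). MSTRG.18203 followed the same course, from 6.31, 0 and 0.455 CPM to 513, 1002 and 526 CPM (log2 8.25, SE 1.51, edgeR adjusted p = 0.000719). Both were highest in control pool 1 among the controls and in pool 2 at day 7. MSTRG.18863 rose from 1.66, 0.319 and 1.21 CPM to 270.0, 522 and 164 CPM (log2 8.21, SE 1.14, edgeR adjusted p = 0.000151), and day 4 pools 2 and 3, with 245 and 291 CPM, already lay within the range of day 7. MSTRG.111 rose from 0.996, 0 and 0 CPM to 232, 224 and 109.96 CPM (log2 9.12, SE 1.17, edgeR adjusted p = 9.96e-05).

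A few risers had too few control reads for a fold change. MSTRG.10799 and MSTRG.4091 had 0 reads in all controls and 897 and 868 reads at day 7, at least 253-fold and at least 245-fold higher when set against 3 reads over the control group. MSTRG.10799 was spread widely at day 7, with 98.6, 18.3 and 6.47 CPM, and MSTRG.4091 less so, with 51.8, 43.5 and 22.04 CPM. MSTRG.17938 had 3 reads against 2072, a ratio of 585 (95% counting interval 199.8 to 2837), and MSTRG.8190 had 1 against 606, a ratio of 513 (91.7 to 20293). These intervals cover counting error only. MSTRG.1894 and MSTRG.10828 were also at 0 reads in controls and had 236 reads each at day 7, at least 66.6-fold higher, and the call of MSTRG.1894 was lost without control pool 3 and under limma voom. In all, 95 risers had no read in any control. MSTRG.10803 showed a steep late rise, from 9.47, 0.159 and 0 CPM in controls and 8.82 to 13.1 CPM at day 4 to 551, 1181 and 773 CPM at day 7 (log2 8.03, SE 1.19, edgeR adjusted p = 0.000302). In Mangaia it had 0 reads in controls and 43.2, 13.1 and 19.2 CPM at day 7.

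**Figure D3:**
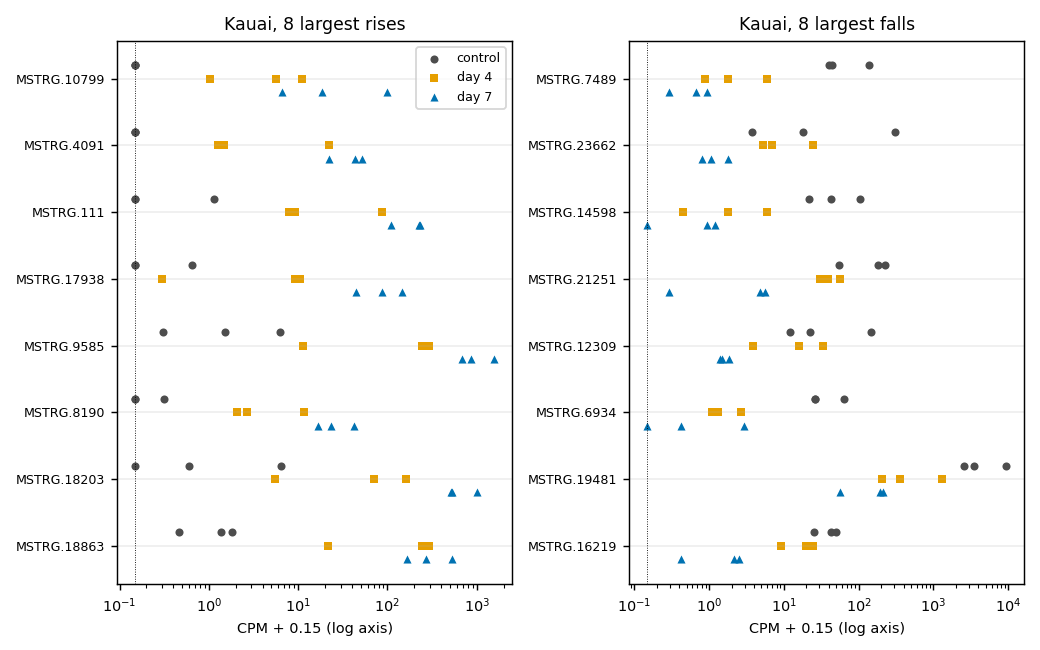
CPM plus 0.15 on a log axis (horizontal) of the 8 genes with the largest rises (left) and the 8 with the largest falls (right) among DE genes averaging 10 CPM or more with separate groups, with 1 point for each control (circles), day 4 (squares) and day 7 (triangles) pool; the dotted line marks 0 CPM. Day 4 pools mostly lie between the controls and day 7, as for MSTRG.9585 with 11.3 to 294 CPM at day 4 against 679 to 1569.7 CPM at day 7.

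Among the largest falls, MSTRG.19481 carried the most reads. It had 2557, 9502 and 3527 CPM in controls, 207, 1298 and 362 CPM at day 4 and 56.6, 210.3 and 195 CPM at day 7 (log2 -5.08, SE 0.728, edgeR adjusted p = 0.000185), so its day 4 pools were already below every control. MSTRG.7489 fell from 43.7, 137 and 40.0 CPM to 0.139, 0.796 and 0.528 CPM (log2 -7.17, SE 0.808, edgeR adjusted p = 4.47e-05), with 0.733, 5.88 and 1.64 CPM at day 4. MSTRG.14598 and MSTRG.6934 had likewise dropped by day 4, to 0.293 to 5.74 CPM and 0.958 to 2.52 CPM from 21.3 to 103 CPM and 26.1 to 64.6 CPM. For 5 others the day 4 pools lay between the controls and day 7, all below every control apart from 1 pool of MSTRG.21251. MSTRG.21251 had 55.3, 222 and 183 CPM in controls, 30.5 to 55.7 CPM at day 4 and 0.139, 4.64 and 5.41 CPM at day 7 (log2 -5.49, SE 0.983, edgeR adjusted p = 0.000628). MSTRG.6792, MSTRG.18100 and MSTRG.20477, each with a mean over 100 CPM, changed by -4.61, -4.50 and -4.47 on the log2 scale, and at day 4 they had 60.8 to 147, 45.7 to 74.6 and 125 to 314 CPM. MSTRG.6792 and MSTRG.18100 were lowest in day 7 pool 1, with 2.499 and 2.08 CPM against 11.5 to 14.2 CPM in the other pools, and MSTRG.20477 was lowest in pool 3, with 9.50 CPM against 23.5 and 20.7 CPM. MSTRG.16219 fell from 25.6, 42.5 and 49.7 CPM through 8.89 to 24.2 CPM at day 4 to 0.278, 2.39 and 1.98 CPM (log2 -4.64, SE 0.784, edgeR adjusted p = 0.000449).

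For 2 of the largest falls a single control pool stood far above the others. MSTRG.23662 had 3.65, 17.7 and 306 CPM in controls against 1.67, 0.928 and 0.660 CPM at day 7 (log2 -6.64, SE 1.63, edgeR adjusted p = 0.00386), and limma voom gave an adjusted p of 0.0983. MSTRG.12309 had 11.8, 22.3 and 148 CPM in controls against 1.25, 1.72 and 1.32 CPM at day 7 (log2 -5.39, SE 1.23, edgeR adjusted p = 0.00249). Control pool 3 held the highest level in both, as it did for 45 of the 65 genes averaging 10 CPM or more that fell by more than 4 on the log2 scale. Of those 65, 55 were also DE and lower in Mangaia, and of the 88 genes that rose by more than 4, 84 were DE and higher there. Among all genes tested 18.8% were DE and lower in Mangaia and 12.6% DE and higher. DE fallers without any read at day 7 numbered 92. The 4 with the highest lowest control were MSTRG.23274, MSTRG.1001, MSTRG.19007 and MSTRG.19726, at least 26.8-fold, 24.0-fold, 14.6-fold and 12.6-fold lower against 3 reads over the day 7 group, from 1.59 to 4.55 CPM in controls.

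The changes best separated from the spread between pools were more moderate. The 3 smallest p-values among the risers belonged to MSTRG.2947, MSTRG.4647 and MSTRG.17683, all with an edgeR adjusted p of 3.09e-06. MSTRG.17683 had 35.5, 30.9 and 38.4 CPM in controls, 106 to 125 CPM at day 4 and 154, 154 and 146 CPM at day 7 (log2 2.11, SE 0.157). MSTRG.2947 had 7.80, 5.90 and 9.25 CPM in controls and 252, 206 and 168 CPM at day 7 (log2 4.77, SE 0.338), and MSTRG.4647 rose by 5.63 (SE 0.407) from 0.478 to 1.33 CPM. All 3 were well above every control at day 4. Among the fallers the smallest p-values were those of MSTRG.3006, from 22.3, 33.3 and 24.0 CPM to 1.25, 0.663 and 1.45 CPM (log2 -4.54, SE 0.41, edgeR adjusted p = 1.24e-05), MSTRG.19311 and MSTRG.20622. MSTRG.19311 fell by 1.77 (SE 0.177, edgeR adjusted p = 2.38e-05) and differed little within a group, with 29.6, 32.3 and 30.5 CPM in controls and 7.91, 9.68 and 9.37 CPM at day 7. None of the 6 has a name.

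The immune list leaned toward higher expression. Of its 53 genes, all of which passed the filter on low counts, 36 were higher, 9 lower and 8 not DE at day 7, where 25.1% of all genes tested were higher and 26.2% lower. The 53 are a subset of the study's immune annotations, each of which it had reported as responding in at least 1 of its comparisons of these samples, so neither the share called nor the direction is independent evidence, and the figures over all genes stand beside them as a description. The median log2 change over the list was 1.14, against 0.07 over all genes tested. The groups did not overlap for 46 of the 53, against 60.4% of all genes (30.7% with day 7 above and 29.7% below the controls), and 17 rose and 5 fell by more than 2-fold in edgeR's glmTreat (8.67% and 16.6% of all genes). In Mangaia 21 were higher and 6 lower, where 12.6% of all genes tested were higher and 18.8% lower. At day 4 the mean of 44 of the 53 lay above that of the controls, against 12031 of 23748 genes. No direction of a DE member reversed under any scaling, test or left-out library.

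**Figure D4:**
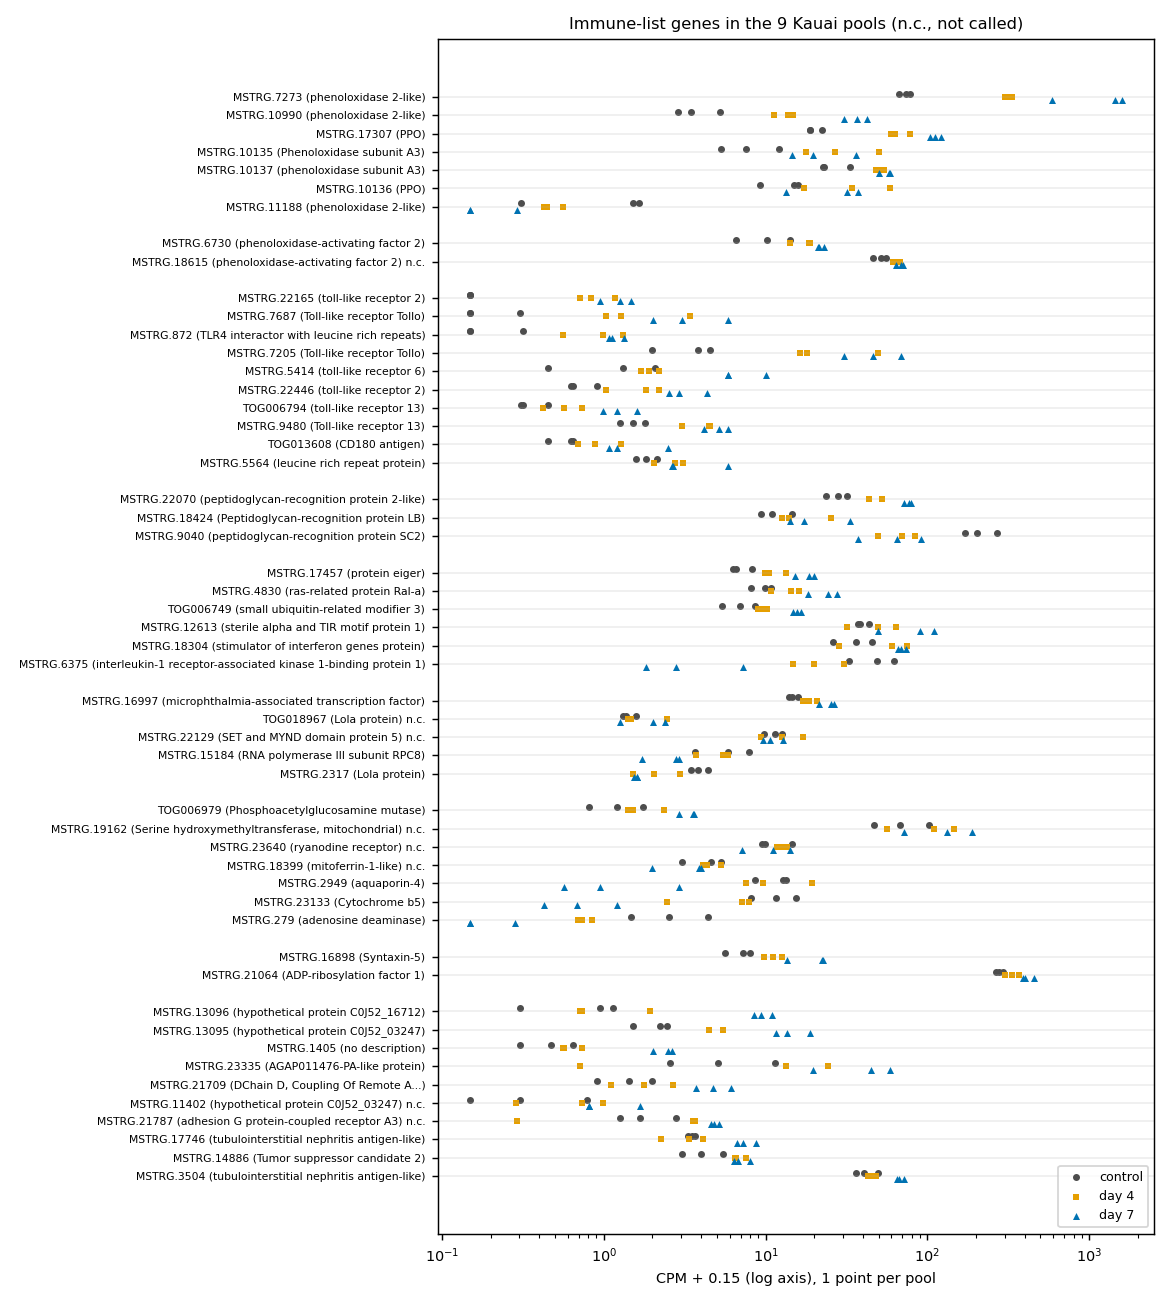
CPM plus 0.15 on a log axis (horizontal) of 52 of the 53 immune-list genes (vertical, grouped by family and ordered by change) in the 9 Kauai pools, with 1 point for each control (circles), day 4 (squares) and day 7 (triangles) pool; n.c. marks the 8 genes that were not called. The phenoloxidases and the Toll-like receptors lie to the right at day 7 apart from MSTRG.11188, which fell, and MSTRG.10136, which overlapped with its controls, and the phenoloxidase 2-like gene MSTRG.7273 reached 593 to 1591 CPM from 66.3 to 77.4 CPM.

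Phenoloxidases, the enzymes of melanin synthesis, were higher for 6 of 7 genes. Over all genes tested 25.1% were higher, and these 7 belong to a list chosen on these data. MSTRG.7273, a phenoloxidase 2-like gene, had 77.4, 66.3 and 73.4 CPM in controls, 304, 334 and 304 CPM at day 4 and 1591, 1449.8 and 593 CPM at day 7 (log2 4.07, SE 0.428, edgeR adjusted p = 2.94e-05). Every day 4 pool was above every control and every day 7 pool above every day 4 pool, and day 7 pool 3 was well below the other two. MSTRG.10990, also phenoloxidase 2-like, rose from 3.32, 5.10 and 2.73 CPM through 11.1 to 14.7 CPM at day 4 to 42.3, 30.5 and 36.4 CPM (log2 3.29, SE 0.373, edgeR adjusted p = 4.73e-05). MSTRG.17307, listed as PPO (prophenoloxidase), had the same smallest adjusted p as the 3 risers named before, with 22.1, 18.6 and 18.6 CPM in controls, 62.5, 77.5 and 59.5 CPM at day 4 and 103, 112 and 122 CPM at day 7 (log2 2.502, SE 0.188, edgeR adjusted p = 3.09e-06).

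The 3 other phenoloxidases that rose changed less, and their day 4 pools overlapped with those of day 7. MSTRG.10137, phenoloxidase subunit A3, went from 33.0, 22.5 and 22.7 CPM to 49.7, 54.0 and 48.0 CPM at day 4 and 49.8, 58.9 and 57.9 CPM at day 7 (log2 1.09, SE 0.305, edgeR adjusted p = 0.00813). MSTRG.10135, also subunit A3, had 5.15, 12.0 and 7.43 CPM in controls, 26.7, 50.2 and 17.7 CPM at day 4 and 35.8, 14.5 and 19.4 CPM at day 7 (log2 1.503, SE 0.469, edgeR adjusted p = 0.0148). MSTRG.10136, the other PPO gene, overlapped between the groups, with 9.13, 15.8 and 14.9 CPM in controls, 33.9, 58.4 and 17.2 CPM at day 4 and 37.2, 13.3 and 31.8 CPM at day 7 (log2 1.05, SE 0.414, edgeR adjusted p = 0.0452). Its call was lost under 23 of 28 alternatives (the highest adjusted p was 0.219), the replicate block among them (adjusted p = 0.0558), and that of MSTRG.10135 under 4, each of which left out control pool 1, control pool 3 or day 7 pool 1. These 3 genes bear neighbouring numbers, and reads that they might share by similarity were not resolved. MSTRG.11188, a phenoloxidase 2-like gene, went the other way, with 19 reads in controls (1.49, 0.159 and 1.36 CPM) and 1 at day 7, 22.4-fold lower (95% counting interval 3.57 to 933). Of the activating factors, serine protease-like proteins upstream of phenoloxidase, MSTRG.6730 rose from 13.9, 6.37 and 10.01 CPM to 21.1, 20.9 and 22.7 CPM (log2 1.09, SE 0.255, edgeR adjusted p = 0.00282). MSTRG.18615 had 51.8, 55.1 and 45.9 CPM in controls and 63.6, 70.8 and 68.5 CPM at day 7 (log2 0.41, SE 0.193, edgeR adjusted p = 0.0888).

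Toll-like receptors and leucine-rich repeat proteins were higher throughout, with all 10 DE, none overlapping between the groups and 8 more than 2-fold higher by glmTreat. Over all genes 25.1% were higher, 30.7% had every day 7 pool above the controls and 8.67% passed glmTreat as higher, and these 10 belong to a list chosen on these data. The fly protein Tollo, also called Toll-8, is a receptor of the Toll family. MSTRG.7205, Toll-like receptor Tollo, had 1.83, 3.66 and 4.396 CPM in controls, 16.3, 17.8 and 49.4 CPM at day 4 and 68.7, 30.4 and 45.8 CPM at day 7 (log2 3.86, SE 0.566, edgeR adjusted p = 0.000208). The other Tollo gene, MSTRG.7687, had 1 read in controls and 77 at day 7, a ratio of 65.2 (11.4 to 2607). Counts were low across the rest of the family, and 6 of the 10 were below 1 CPM in every control. MSTRG.5414, toll-like receptor 6, rose from 1.16, 1.91 and 0.303 CPM to 9.86, 5.70 and 5.68 CPM (log2 2.64, SE 0.49, edgeR adjusted p = 0.000759), while its day 4 pools, at 1.54 to 2.05 CPM, lay close to the controls. MSTRG.22446, toll-like receptor 2, rose by 2.38 (SE 0.465, edgeR adjusted p = 0.00101) to 2.39 to 4.16 CPM. MSTRG.22165, the other toll-like receptor 2, had 0 reads in controls and 24 at day 7, at least 6.77-fold higher.

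Toll-like receptor 13 was listed for a pair of genes. MSTRG.9480 had 1.66, 1.12 and 1.36 CPM in controls, 4.401, 4.34 and 2.87 CPM at day 4 and 4.03, 5.04 and 5.68 CPM at day 7 (log2 1.82, SE 0.316, edgeR adjusted p = 0.000518). TOG006794 rose from 0.159 to 0.303 CPM up to 0.833 to 1.46 CPM (log2 2.31, SE 0.66, edgeR adjusted p = 0.00917), on 4 reads against 25. MSTRG.872, a TLR4 interactor, had 1 read in controls and 23 at day 7, a ratio of 19.5 (3.16 to 802). TOG013608, described as CD180 antigen, had 8 reads against 32 (log2 1.72, SE 0.55, edgeR adjusted p = 0.0165). The leucine-rich repeat protein MSTRG.5564 had 1.99, 1.43 and 1.67 CPM in controls and 5.69, 2.52 and 2.51 CPM at day 7 (log2 1.06, SE 0.379, edgeR adjusted p = 0.0284). Day 7 pool 1 was the highest for the last 2 genes, and without it neither call held. Leaving out control pool 3 also lost both. In all, TOG013608 lost its call under 4 of 27 alternatives and MSTRG.5564 under 8 of 28, with highest adjusted p of 0.147 and 0.277.

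Peptidoglycan recognition proteins, which bind the bacterial cell wall, did not move together. MSTRG.22070, peptidoglycan-recognition protein 2-like, had 27.7, 23.6 and 31.8 CPM in controls, 43.4 to 52.5 CPM at day 4 and 77.0, 71.3 and 79.2 CPM at day 7 (log2 1.45, SE 0.214, edgeR adjusted p = 0.000218). MSTRG.9040, protein SC2, which in flies breaks peptidoglycan down, fell from 268, 172 and 203 CPM to 49.4 to 83.2 CPM at day 4 and 64.5, 37.1 and 91.2 CPM at day 7 (log2 -1.74, SE 0.425, edgeR adjusted p = 0.00375), so most of its fall was present by day 4. MSTRG.18424, protein LB, an enzyme in flies that cleaves peptidoglycan, overlapped between the groups, with 10.8, 14.3 and 9.25 CPM in controls and 17.1, 33.3 and 13.99 CPM at day 7 (log2 0.90, SE 0.36, edgeR adjusted p = 0.0469). The call was lost under 16 of 28 alternatives, with a highest adjusted p of 0.346 and 0.0623 with the replicate block.

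Of 6 signalling proteins, 5 were higher, none of them by more than 2-fold in glmTreat, and 1 was lower. Among all genes tested 25.1% were higher, 8.67% passed glmTreat as higher and 26.2% were lower, and the list was chosen on these data. MSTRG.17457, protein eiger, the tumour necrosis factor of flies, rose from 6.14, 6.37 and 8.03 CPM to 15.0, 19.9 and 18.3 CPM (log2 1.37, SE 0.231, edgeR adjusted p = 0.000444), with day 4 in between at 9.83 to 13.3 CPM. MSTRG.4830, the small GTPase Ral-a, rose from 7.97, 9.72 and 10.6 CPM to 24.2, 27.4 and 18.2 CPM (SE of the log2 change 0.22, edgeR adjusted p = 0.00046), and TOG006749, a small ubiquitin-related modifier, rose by 1.19 (SE 0.186, edgeR adjusted p = 0.000295). MSTRG.18304, the stimulator of interferon genes protein (STING), a sensor of cyclic dinucleotides, went from 45.3, 36.0 and 26.1 CPM to 73.6, 65.9 and 68.2 CPM (log2 0.95, SE 0.282, edgeR adjusted p = 0.0113; 0.0506 without control pool 3). MSTRG.12613, a sterile alpha and TIR motif protein (SARM), an NAD-cleaving enzyme of neurons in other animals, had 43.7, 38.4 and 37.1 CPM in controls and 90.1, 49.1 and 110.4 CPM at day 7 (log2 1.07, SE 0.311, edgeR adjusted p = 0.0103; 0.0824 without day 7 pool 3). The faller was MSTRG.6375, an interleukin-1 receptor-associated kinase 1-binding protein, with 32.7, 48.6 and 61.7 CPM in controls, 19.7, 30.2 and 14.6 CPM at day 4 and 1.67, 2.65 and 7.13 CPM at day 7 (log2 -3.63, SE 0.503, edgeR adjusted p = 0.000148). Day 7 pool 1 was lowest, as it was for most of the 929 genes of the band to which it belongs.

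Among 7 metabolic enzymes, channels and carriers, 3 were lower, 1 higher and 3 not DE, beside 51.3% of all genes DE and 26.2% lower. MSTRG.23133, the electron carrier cytochrome b5, fell from 7.97, 11.5 and 15.3 CPM to 0.278, 0.530 and 1.06 CPM (log2 -4.18, SE 0.568, edgeR adjusted p = 0.000135), and MSTRG.2949, the water channel aquaporin-4, from 8.47, 13.2 and 12.7 CPM to 0.416, 0.796 and 2.77 CPM (log2 -3.09, SE 0.553, edgeR adjusted p = 0.000625). Day 7 pool 1 was again lowest for both. The day 4 pools of MSTRG.23133, at 2.33 to 7.70 CPM, lay between the controls and day 7. Those of MSTRG.2949, at 7.39 to 19.3 CPM, overlapped with the controls. MSTRG.279, adenosine deaminase, which breaks down extracellular adenosine, had 51 reads in controls and 1 at day 7, 60.3-fold lower (95% counting interval 10.3 to 2426). TOG006979, phosphoacetylglucosamine mutase, an enzyme on the path to chitin precursors, rose from 0.664, 1.59 and 1.06 CPM to 3.47, 2.78 and 3.43 CPM (log2 1.53, SE 0.382, edgeR adjusted p = 0.00428). MSTRG.19162, a mitochondrial serine hydroxymethyltransferase, MSTRG.23640, the calcium channel ryanodine receptor, and MSTRG.18399, the iron carrier mitoferrin-1, were not DE, with log2 values of 0.85, -0.07 and -0.40 and edgeR adjusted p of 0.121, 0.899 and 0.301.

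Among 6 nuclear regulators 3 were lower, 1 higher and 2 not DE, again beside 51.3% of all genes DE. None changed by more than 2-fold in glmTreat, which 25.3% of all genes passed. MSTRG.2317, Lola protein, a transcription factor of flies, fell from 3.32, 3.66 and 4.24 CPM to 1.39, 1.46 and 1.45 CPM (log2 -1.38, SE 0.355, edgeR adjusted p = 0.0051), whereas TOG018967, with the same description, had 1.16, 1.43 and 1.21 CPM in controls and 1.11, 1.86 and 2.24 CPM at day 7 (log2 0.45, SE 0.417, edgeR adjusted p = 0.383). MSTRG.15184, an RNA polymerase III subunit, fell by 1.27 (SE 0.31, edgeR adjusted p = 0.00361). MSTRG.16997, the microphthalmia-associated transcription factor, rose by 0.74 (SE 0.184, edgeR adjusted p = 0.0043) from 13.8 to 15.6 CPM up to 21.4 to 26.3 CPM. MSTRG.22129, a SET and MYND domain protein, stayed within the range of its controls or close to it, at 9.50 to 12.6 CPM against 9.56 to 12.4 CPM. Both trafficking genes rose, the membrane fusion protein syntaxin-5 (MSTRG.16898) by 1.504 (SE 0.266, edgeR adjusted p = 0.00058) and ADP-ribosylation factor 1 (MSTRG.21064), a GTPase of vesicle formation, by 0.58 (SE 0.151, edgeR adjusted p = 0.00573). They belong to a list chosen on these data, and 25.1% of all genes tested were higher. For MSTRG.21064 the adjusted p was 0.0603 in a fit that held the 6 Kauai control and day 7 libraries alone.

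The remaining 10 genes, most of them with descriptions that give no function, were higher in 8 cases and not DE in 2. Over all genes tested 25.1% were higher and 51.3% DE, and these 10 too belong to a list chosen on these data. MSTRG.13096 and MSTRG.13095, both hypothetical proteins, rose from 0.152 to 0.996 CPM up to 8.35 to 10.8 CPM (log2 3.85, SE 0.713, edgeR adjusted p = 0.000754) and from 1.36 to 2.32 CPM up to 11.4 to 18.7 CPM (log2 2.91, SE 0.467, edgeR adjusted p = 0.000329). Day 4 levels of MSTRG.13096 were still 0.560 to 1.78 CPM, near the controls. MSTRG.1405, without a description, rose by 2.75 (SE 0.64, edgeR adjusted p = 0.0028) on 6 reads against 50, and MSTRG.21709 by 1.87 (SE 0.399, edgeR adjusted p = 0.0017). MSTRG.23335 rose by 2.72 (SE 0.898, edgeR adjusted p = 0.0196) but varied widely, with 11.3, 4.94 and 2.43 CPM in controls, 13.2, 0.560 and 24.2 CPM at day 4 and 44.6, 19.6 and 58.9 CPM at day 7, and its adjusted p reached 0.0787 when 1 library was left out. The 2 tubulointerstitial nephritis antigen-like genes, MSTRG.17746 and MSTRG.3504, rose by 1.14 (SE 0.375, edgeR adjusted p = 0.0192) and 0.69 (SE 0.188, edgeR adjusted p = 0.00705), and the tumor suppressor candidate MSTRG.14886 by 0.78 (SE 0.293, edgeR adjusted p = 0.0355). The calls of MSTRG.17746 and MSTRG.14886 were lost under 3 and 12 of 28 alternatives, the second also with the replicate block (adjusted p = 0.0549). MSTRG.11402 and the adhesion G protein-coupled receptor MSTRG.21787 were not DE, with log2 values of 1.77 (SE 0.81, edgeR adjusted p = 0.0782) and 1.41 (SE 0.85, edgeR adjusted p = 0.177).

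The response of Kauai crickets was set against that of Mangaia crickets, a population whose history with the fly differs. Of the 5953 Kauai risers, 82.6% also had a higher fitted level at day 7 in Mangaia and 1893 were DE there in the same direction, with 18 DE in the opposite direction. Of the 6221 fallers 89.9% were lower, 3596 of them DE, and 59 were DE and higher. At day 7 in Mangaia 7454 genes (31.4%) were DE in all, with 12.6% of all genes tested higher and 18.8% lower. The fitted changes of the populations had the same sign for 73.2% of all genes tested. The median change of the Kauai risers was 0.54 in Mangaia and that of the fallers -2.02, smaller than in Kauai, where the genes had been chosen. The difference between the responses, tested gene by gene as the population by day 7 interaction, passed an FDR of 0.05 for 576 genes (2.43%), 294 of them with the more positive change in Kauai. This count was unstable, ranging from 0 to 939 when 1 library was left out, and edgeR's test called 0 genes without any 1 of Kauai control pools 2 and 3, Kauai day 4 pool 1, Kauai day 7 pool 1, Mangaia control pools 2 and 3 or Mangaia day 7 pool 1. It was 2 without Kauai day 7 pool 3, 26 without Mangaia control pool 1 and 218 without Mangaia day 7 pool 3, and with the replicate block it was 0, where 4594 genes had an unadjusted p under 0.05 against 5088 without the block. DESeq2 called 2102 interactions.

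Among immune-list genes only Toll-like receptor 13, MSTRG.9480, had an interaction past the threshold (difference of 2.32, SE 0.459, edgeR adjusted p = 0.0378; 0.0800 with the replicate block). In Mangaia it had 1.84, 1.91 and 1.53 CPM in controls and 1.25, 1.11 and 1.37 CPM at day 7, below every Mangaia control but not DE (log2 -0.50, edgeR adjusted p = 0.256), while in Kauai every day 7 pool was above every control. MSTRG.22552 and MSTRG.13844 had the largest positive interactions among genes averaging 10 CPM or more (edgeR adjusted p = 0.0499 and 0.0378). These interactions were lost under 18 and 12 of 28 alternatives. MSTRG.13844 rose from 64.3, 46.7 and 45.2 CPM to 609, 274 and 497 CPM in Kauai (log2 3.14, SE 0.666, edgeR adjusted p = 0.00161), and in Mangaia had 122, 94.0 and 405 CPM in controls and 100.3, 124 and 42.7 CPM at day 7. MSTRG.22552 rose from 4.65, 7.65 and 1.21 CPM to 70.2, 32.6 and 103 CPM (log2 3.93, SE 0.854, edgeR adjusted p = 0.00188) and had 8.42 to 31.4 CPM in Mangaia controls and 7.13 to 21.4 CPM at day 7 there.

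In the other direction, MSTRG.14947 fell in Kauai from 779, 899 and 674 CPM to 139, 187 and 96.9 CPM (log2 -2.47, SE 0.545, edgeR adjusted p = 0.00199). In Mangaia it had 431 to 628 CPM in controls and 287 to 1507 CPM at day 7, which overlapped. MSTRG.20622, one of the fallers with the smallest p-values, went from 45.8, 36.8 and 68.8 CPM to 8.61, 12.6 and 10.6 CPM (log2 -2.25, SE 0.229, edgeR adjusted p = 2.56e-05) against 29.997 to 32.0 CPM in Mangaia controls and 19.5 to 26.7 CPM at day 7 there, a difference of -1.82 (SE 0.312, edgeR adjusted p = 0.0335; 0.0763 with the replicate block). MSTRG.13759 rose in Mangaia, from 7.36 to 9.16 CPM up to 20.6 to 41.6 CPM, and had 16.4, 13.4 and 13.8 CPM in Kauai controls and 13.6, 8.09 and 4.09 CPM at day 7 (log2 -0.76, SE 0.421, edgeR adjusted p = 0.143). The largest phenoloxidase, MSTRG.7273, did not pass the interaction test, with a log2 change of 4.18 (SE 0.43) in Mangaia and a difference of -0.11 (SE 0.535, edgeR adjusted p = 0.925), nor did MSTRG.17307 (0.54, SE 0.251, edgeR adjusted p = 0.225) or Tollo MSTRG.7205 (0.68, SE 0.741, edgeR adjusted p = 0.62).

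**Figure D5:**
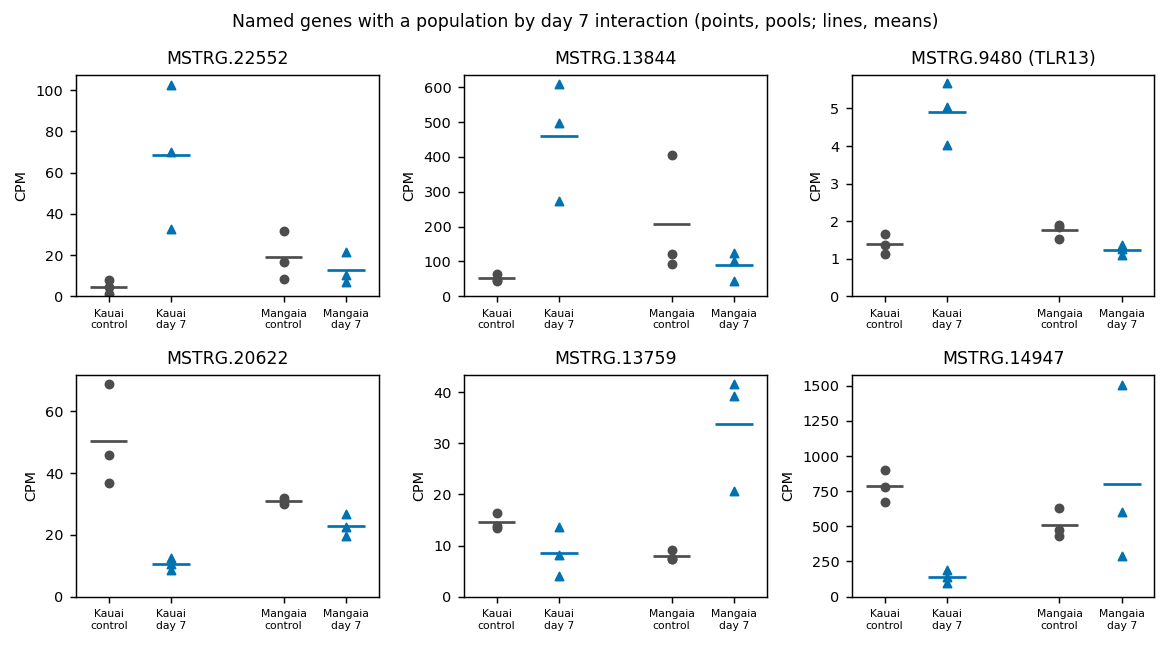
CPM (vertical, from 0) of the 6 named genes with a population by day 7 interaction at an FDR of 0.05, in control (circles) and day 7 (triangles) pools of Kauai and Mangaia (horizontal), with 1 point for each pool and lines at the group means. In Kauai, Toll-like receptor 13 (TLR13, MSTRG.9480) rose from 1.12 to 1.66 CPM up to 4.03 to 5.68 CPM, while in Mangaia it had 1.53 to 1.91 CPM in controls and 1.11 to 1.37 CPM at day 7.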

How the data were processed

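Poly(A) RNA of pooled crickets was sequenced as paired reads from unstranded libraries on 1 lane. Per the study's methods, the authors removed adapters and low-quality ends (Trimmomatic 0.33), mapped intact pairs to an assembly of the cricket's genome in a pair of passes (STAR 2.5.3a, with splice junctions from all samples merged by StringTie 1.3.4d) and deposited raw counts of uniquely mapped read pairs per gene, of which those without regard to strand were used. Rows that name no gene took 26.8% to 31.5% of a library and were left out.

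The filter required 1 CPM in 2 or more of the 18 libraries and kept 23748 of 32729 genes, with 99.9% of the gene counts. edgeR 4.0.16 (R 4.3.3) fitted a quasi-likelihood model of 6 group means, which share 1 estimate of the spread, after TMM scaling, with Benjamini-Hochberg adjustment over all genes tested. Standard errors are the absolute log2 change divided by the square root of F. Changes of single pools used a pseudocount of 0.5 CPM. Library measures were compared by exact permutation, and the fit was tested on simulated data.

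Genes were chosen for naming as the 53 of the study's immune list, of which 1 enters the counts but is not reported here, and, by rule, 43 others: the 8 largest rises and 8 largest falls among genes averaging 10 CPM or more with separate groups, the 4 of each among those averaging 100 CPM or more, the 5 most abundant in each group, 4 each without reads in controls or at day 7, the 3 smallest p-values in each direction, and the 2 largest interactions in each direction. The members and lists were chosen with earlier results of these data known. Results were recomputed with a likelihood ratio test (edgeR), with DESeq2 1.42.0 and with voom (limma 3.58.1), with other scalings, filters and folds, on just those libraries that a comparison involves, with replicate number as a block, and leaving out each library; dropping Kauai pool 1 and Mangaia pool 2 of day 7 together was chosen after seeing the data. No genome, coordinates or sequences were used here.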

Additional observations from a re-analysis of the deposited data

Results flagged for a closer look

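Day 7 responses that differed between the populations were those of the 6 named genes with an interaction past an FDR of 0.05 in edgeR's quasi-likelihood test, given as the log2 response of Kauai minus that of Mangaia. The difference was 2.32 for Toll-like receptor 13 (MSTRG.9480), 4.36 for MSTRG.13844 and 4.46 for MSTRG.22552, with the more positive response in Kauai. It was -1.82 for MSTRG.20622, -2.85 for MSTRG.13759 and -3.12 for MSTRG.14947. Only MSTRG.9480, MSTRG.13844, MSTRG.14947, MSTRG.20622 and MSTRG.22552 were also DE within Kauai, and MSTRG.13759 was DE within Mangaia. None of the 6 interactions passed with the replicate block, where their adjusted p ran from 0.0763 to 0.105. Each was lost under 11 to 18 of 28 alternatives, among them leaving out several single libraries. The fewest losses were those of MSTRG.9480 and MSTRG.20622 and the most those of MSTRG.22552, whose edgeR adjusted p was 0.0499.

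Measures of whole libraries were screened at day 4 and at day 7. Listed are 3 in which all Kauai pools of a day lay past their controls, and all Mangaia pools past theirs the opposite way. Each met this rule at a single day, measures that did not meet it are left out, and these differences were not tested. The number of genes that held 50% of the counts at day 7 was higher by 109 in mean in Kauai and changed by -33 in Mangaia. The share of read pairs in the 929 genes of the band at day 4 changed by -6.25 percentage points in Kauai and 1.84 in Mangaia. Kauai control levels also entered the choice of these genes, which favours a fall from those controls, and Mangaia levels did not. In Mangaia the median change over the band's genes overlapped between day 4 and controls. The share of ambiguous read pairs at day 4, which overlap several genes, changed by -0.89 points in Kauai and 0.635 in Mangaia.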

How the results depend on the processing

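The count of DE genes at day 7 stayed between 9487 and 13444 under all alternatives, within 1.5 times of 12174, and was 9487 to 12504 when 1 library was left out. It was 12853 by the likelihood ratio test, 12428 by DESeq2 (5089 higher), 11981 with RLE size factors (4896 higher), 13444 with library size alone (8280 higher) and 10206 without both libraries that stand apart. The count over 2-fold was 619 at a fold of 4 and 3583 to 6465 with 1 library left out. The interaction count was 1711 by the likelihood ratio test, 2102 by DESeq2, 1947 with library size alone (1818 of them positive), 306 with no filter, 0 without both libraries that stand apart and 0 to 939 with 1 library left out; the cause was not tested. The immune count was 36 to 45 with 1 library left out and 38 to 48 under the other alternatives. Of the 86 called genes among those chosen for naming, 72 were called under every alternative run, 14 lost the call under at least 1 and 0 reversed; of the 10 not called, 5 passed under at least 1.

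Same-numbered Kauai control and day 7 pools had deviations that correlated at -0.0142 to 0.262, and 1 of 3 pairs exceeded 0.1, so replicate numbers were not taken as pairs. With the replicate block 11426 genes were called, 5371 over 2-fold, 42 of the immune list and 0 interactions, and 3 of those genes lost their call. With 3 pools a group, the median standard error of a log2 change was 0.47, which limits what can be called among low counts.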
